A study of Mus musculus with 9 samples.

Results

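The genes described here encode MHC class I molecules and the machinery that loads them with peptide. They were taken by symbol from the gene-name column of the count tables: H2-K1, H2-D1, H2-T23, B2m, Tap1, Tap2, Tapbp, Erap1, Calr and Pdia3. All 10 were found among the 42454 names listed, and all 10 passed the filter on low counts that left 18243 names for testing. RNA was sequenced in bulk from whole tumours that MC38 cells, a mouse colorectal carcinoma line, had formed in C57BL/6J mice, collected 21 days after inoculation. The Vec group (4 tumours) grew from MC38 cells labelled Vec, with the genotype given as WT, and the CD43-KO group (5 tumours) from MC38 cells with CD43 knocked out. No alteration of the host mice is stated for either group, the labels give no age or sex, and they do not say whether the knockout cells were a single clone.

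MHC class I molecules show short peptides from the inside of a cell to CD8 T cells and to natural killer cells. A heavy chain pairs with beta-2-microglobulin in the endoplasmic reticulum, where the chaperone calreticulin, the disulfide isomerase ERp57 and tapasin hold it next to the TAP transporter until a fitting peptide binds. Most nucleated cells express the pathway, and interferon gamma raises transcription of the heavy chains, beta-2-microglobulin, TAP and tapasin, whereas calreticulin and ERp57 are general chaperones of glycoprotein folding. Tumour RNA came from carcinoma and host cells together. Fewer cells of a type and less RNA per cell therefore cannot be told apart.

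Short stretches upstream of the annotated starts are shown because they carry the letters by which interferon, or stress of the endoplasmic reticulum, is known to act on such genes. They come from RefSeq on GRCm38.p6, where 9 of the 10 genes had a promoter window (250 bases before to 50 after the start). Tap2 had none. Capitals mark the letters searched for, on either strand, with 10 bases on each side.
H2-K1 (chr17:34000419-34000447, minus strand): atctccacagTTTCACTTCtgcacctaac
H2-D1 (chr17:35262934-35262962, plus strand): atctcctcagTTTCACTTCtgcacctaac
H2-T23 (chr17:36032806-36032835, minus strand): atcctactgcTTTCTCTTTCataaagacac
B2m (chr2:122147538-122147567, plus strand): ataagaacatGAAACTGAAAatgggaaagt
Calr (chr8:84847065-84847103, minus strand): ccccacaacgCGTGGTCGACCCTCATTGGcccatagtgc

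The first pair holds TTTCACTTC, the core of the class I interferon consensus sequence, which was found in 0.505% of the 32851 RefSeq windows of this length; these letters were searched for after the sequences had been read. The H2-K1 and H2-D1 promoters are alike around it, with 84 of 95 bases identical (88.4%) over a stretch that also holds TGACGC, the letters of the X2 box, in both genes. TGACGC was present in 7.4% of windows and also lay before Pdia3. The stretches of H2-T23, read on its other strand, and of B2m hold GAAA, any 2 bases and GAAA again. These letters are the core of the interferon-stimulated response element, present in 3.44% of windows. Erap1 has them across its start, also on its other strand. The stretch of Calr holds, read on its other strand, CCAAT and CCACG with 9 bases between them, the ER stress response element, present in 0.119% of windows. TTCNNNGAA, the gamma-activated site, was present in 8.3% of windows and in none of those of these genes, and the windows of Tap1 and Tapbp held none of the 5 patterns. A match is a run of letters and says nothing about binding. By GENCODE vM21 the stretches shown for H2-D1 and H2-T23 lie inside the first exon of a longer transcript.

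Depth ranged from 60751738 to 72114385 total counts in Vec and from 44814061 to 62194418 in CD43-KO libraries. The labels give no batch, and they do not say how the mice were housed or whether each library came from its own mouse, so p-values measure the spread between these libraries. Spn, the gene of CD43, was at 41.0 to 53.8 CPM (counts scaled by TMM to the library total) in Vec and at 6.81 to 33.6 CPM in CD43-KO tumours. CD43-KO replicate 3 stood apart from the other 8 tumours. Its summed skeletal muscle markers reached 1115 CPM and its summed fat markers 755.6 CPM, against at most 116.5 and 82.9 CPM elsewhere. Summed leukocyte markers ranged from 464 to 587.8 CPM in Vec and from 471.6 to 1317 CPM in CD43-KO tumours, again highest in CD43-KO replicate 3. The 8 epithelial markers checked for the carcinoma label summed to only 8.04 to 16.9 CPM in the 9 tumours, with Krt8, Krt18 and Cldn7 too low to be tested. For the 10 genes and the pathway genes named, a log2 fold change without CD43-KO replicate 3 is given where it changed sign or moved by over 1.5 times, and for some others.

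Several of the genes appear in the count tables under more than 1 name. H2-K1, H2-D1, Tap1, Tap2 and Tapbp each have names with a number added (H2-K1_1 and so on) that hold counts of their own, and what these names stand for is not given in the sources used here. Tap1_1 held 100.2% to 100.7% of the counts of Tap1 in every library, Tap2_1 98.7% to 99.4% of those of Tap2, and the 3 copy names of H2-D1 held 94.8% to 99.1%. The same reads may thus have been counted under each name, and CPM levels of these 5 genes are uncertain in that respect. The ratio of H2-K1 was less even. H2-K1_1 held 98.0% to 100.8% of the H2-K1 counts in 7 libraries, but 122.6% in Vec replicate 1 and 119.3% in CD43-KO replicate 1. H2-K1 is therefore given under both names.

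**Figure D1:**
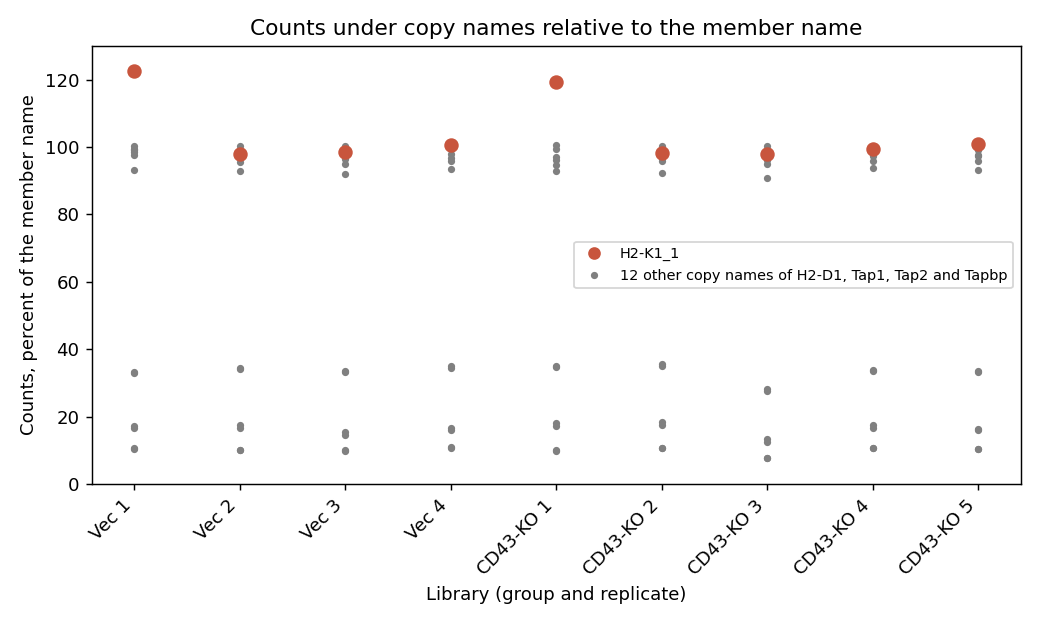
Counts under a copy name as a percentage of the counts under the gene's own name (y axis) in each library (x axis, group and replicate); red points are H2-K1_1 and grey points the other copy names that held over 1% of the gene's counts. H2-K1_1 lies near 100% in 7 libraries and at 122.6% and 119.3% in Vec replicate 1 and CD43-KO replicate 1.

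Near-identical class I genes can also share reads. Of the 100-base windows along the H2-T23 transcript (GENCODE vM21), 7.28% occurred unchanged in a transcript of another gene, and of those along H2-D1 4.64%, among others in Gm7030, Gm11127 and H2-Q1 and in each other. For Tapbp the share was 0.107%. For H2-K1, B2m, Tap1, Tap2, Erap1, Calr and Pdia3 the share was 0%. Only unchanged matches in transcripts of another gene were counted, so these shares do not cover near matches or the copy names. The counting is not stated to use strand, so reads from an antisense neighbour would count toward these genes as well.

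The genes covered a wide range of levels. Scaled by transcript length as well as by depth, B2m was the most abundant in Vec tumours at 1838 ± 239 CPM per kb (SD, n = 4). H2-K1 followed at 819 ± 156 and Calr at 400 ± 43.9 CPM per kb. H2-D1 was at 364 ± 35.9 CPM per kb, which is within the spread of Calr. Pdia3 came next at 214 ± 11.4, then H2-T23 at 113 ± 8.9 and Tapbp at 64.1 ± 4.41 CPM per kb. Tap1, at 32.3 ± 4.23 CPM per kb, lay above Tap2, at 20.2 ± 1.64, and Erap1 was lowest at 11.95 ± 1.37. By the counts under each gene's own name, light chain transcripts thus exceeded those of either classical heavy chain, and transporter and trimming enzyme transcripts were the scarcest. Counts under the copy names of H2-K1, H2-D1, Tap1, Tap2 and Tapbp were left out, so the ranks of these genes are uncertain. With all exonic bases in place of 1 transcript, Tap1 and Tap2 changed places (17.4 and 18.4 CPM per kb).

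None of the 10 genes was called different between the groups by edgeR's quasi-likelihood test with Benjamini-Hochberg adjustment over all 18243 names. Spn, the gene of CD43, was not called either, with a log2 fold change of -0.93 ± 0.36 (SE, edgeR adjusted p = 0.280). A gene that was not called may therefore still differ. The same test called 0% of all names, and at an unadjusted p under 0.05 it marked 15.4% of all names (7.75% higher and 7.63% lower in CD43-KO) and 1 of the 10 genes, Erap1, as higher. DESeq2 called 3.35% of all names (1.35% higher, 2% lower) and limma voom 2.72% (0.904% higher, 1.82% lower), and neither called any of the 10. No gene of the 10 had groups that did not overlap, against 5.59% of all names. The log2 fold changes of CD43-KO over Vec lay above 0 in 7 and below 0 in 3 of the 10 genes, beside 54% of all names above 0. Their median was 0.065, beside 0.027 over all names. Without CD43-KO replicate 3, 2 lay above and 8 below 0, and the median was -0.051.

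**Figure D2:**
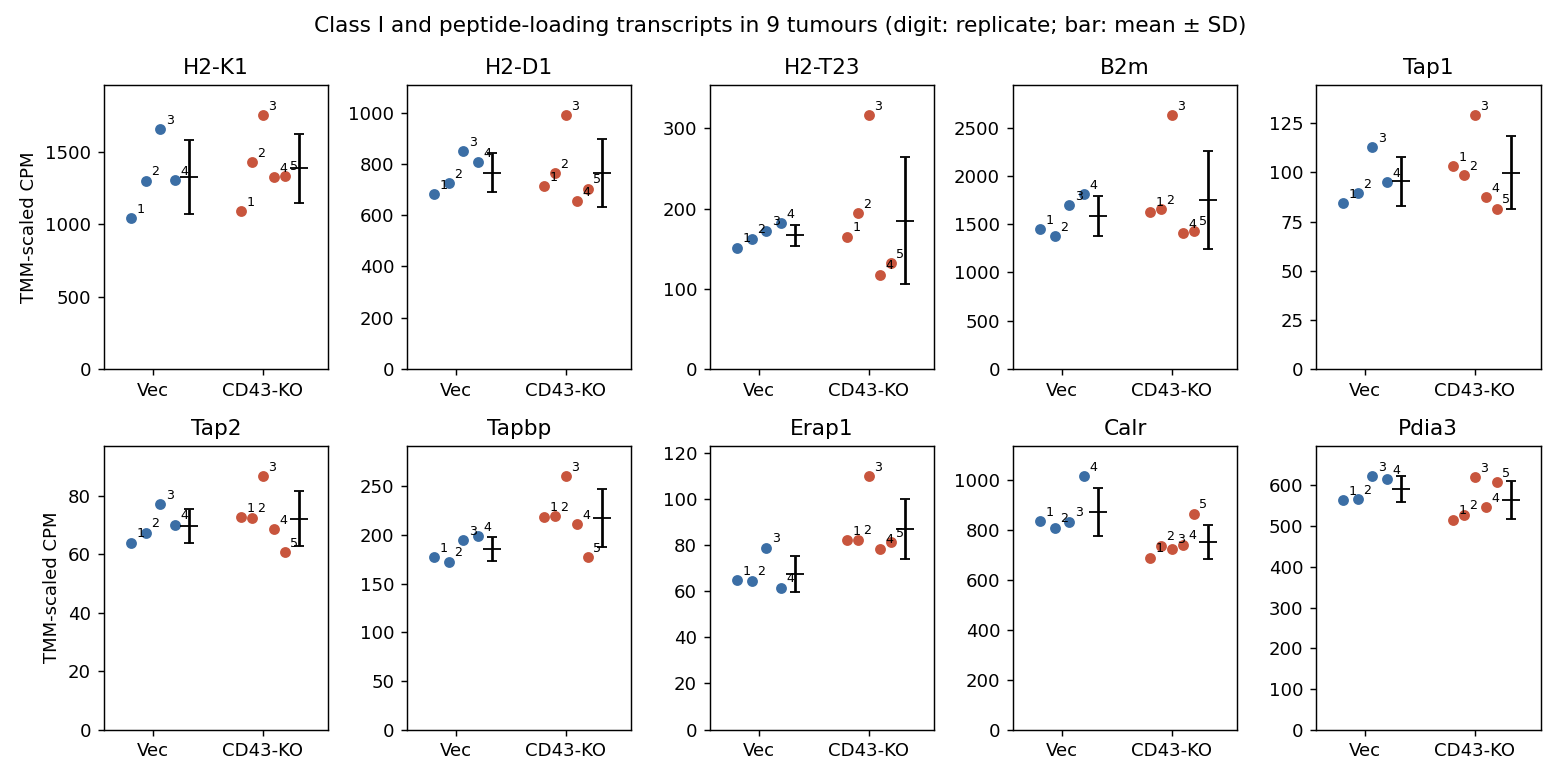
TMM-scaled CPM (y axis, from 0) of the 10 genes in each tumour of the Vec and CD43-KO groups (x axis); digits give the replicate and bars the mean ± SD. CD43-KO replicate 3 is the highest tumour for 8 genes, from H2-K1 to Erap1, and not for Calr or Pdia3, and the groups overlap in all 10.

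The classical heavy chain H2-K1 (ENSMUSG00000061232, GRCm38 chromosome 17, 33996017 to 34000347) presents peptide to CD8 T cells. It was at 1041, 1300, 1657 and 1304 CPM in Vec replicates 1 to 4 and at 1090, 1427, 1751, 1326 and 1335 CPM in CD43-KO replicates 1 to 5. The 2 lowest values belong to the libraries in which the copy name held more counts. The log2 fold change was 0.06 ± 0.16 (SE, 95% interval -0.29 to 0.42, edgeR adjusted p = 0.864), and it turned to -0.04 without CD43-KO replicate 3. Counted under H2-K1_1, the Vec mean was 1373 ± 172 CPM (SD, n = 4), the CD43-KO mean was 1416 ± 172 CPM (SD, n = 5), and the log2 fold change was 0.04 ± 0.12 (edgeR adjusted p = 0.877). The difference between the groups was small beside the spread under either name.

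H2-D1 (chromosome 17, 35262730 to 35267499), the other classical heavy chain of this strain, was at 682, 725, 848 and 807 CPM in Vec and at 713, 764, 989, 655 and 703 CPM in CD43-KO tumours. The means were 765 ± 75.5 (SD, n = 4) and 765 ± 131 CPM (SD, n = 5), and the interval of the log2 fold change ran from -0.29 to 0.29 (edgeR adjusted p = 0.997). The CD43-KO values held both the highest and the lowest tumour. Leaving out CD43-KO replicate 3 gave a log2 fold change of -0.12 (edgeR adjusted p = 0.535).

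H2-T23 (chromosome 17, 36029773 to 36032855) encodes Qa-1, a nonclassical chain that shows leader peptides of other class I chains to the CD94/NKG2A receptor. Its values were 151, 163, 172 and 182 CPM in Vec and 165, 194, 316, 118 and 132 CPM in CD43-KO replicates 1 to 5. CD43-KO replicates 2 and 3 lay above every Vec tumour and CD43-KO replicates 4 and 5 below every Vec tumour. The SD was accordingly 13.1 CPM among Vec tumours (n = 4) and 79.3 CPM among CD43-KO tumours (n = 5). The log2 fold change of 0.15 ± 0.26 (edgeR adjusted p = 0.798) turned to -0.14 without CD43-KO replicate 3, and no other gene of the 10 had so wide an interval (-0.42 to 0.72).

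B2m (chromosome 2, 122147686 to 122153083), the light chain shared by all class I molecules, was at 1447, 1372, 1693 and 1811 CPM in Vec. In CD43-KO it was at 1628, 1656, 2627, 1405 and 1434 CPM. Only CD43-KO replicate 3 lay outside the Vec range. The log2 fold change was 0.15 ± 0.19 (95% interval -0.27 to 0.57, edgeR adjusted p = 0.723) with that tumour and -0.05 without it.

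Tap1 (chromosome 17, 34187553 to 34197225) and Tap2 (chromosome 17, 34203527 to 34216321) encode the 2 subunits of the transporter that carries peptides into the endoplasmic reticulum. Tap1 was at 84.3, 89.6, 113 and 95.004 CPM in Vec and at 103, 98.8, 129, 87.3 and 81.5 CPM in CD43-KO tumours. Tap2 was at 63.9, 67.4, 77.2 and 70.2 CPM in Vec and at 72.7, 72.4, 86.7, 68.5 and 60.8 CPM in CD43-KO tumours. The subunits kept step from tumour to tumour: CD43-KO replicate 3 was highest, Vec replicate 3 second and CD43-KO replicate 5 lowest in both. Their log2 fold changes were 0.07 ± 0.14 (95% interval -0.25 to 0.38) and 0.05 ± 0.11 (95% interval -0.19 to 0.29), with edgeR adjusted p of 0.839 and 0.833. Without CD43-KO replicate 3 they were -0.05 and -0.03.

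Tapbp (chromosome 17, 33915899 to 33929292) encodes tapasin, which bridges the heavy chain to TAP and edits the bound peptide. It was at 177, 173, 194 and 199 CPM in Vec and at 219, 219, 261, 211 and 177 CPM in CD43-KO tumours. Of the 5 CD43-KO tumours 4 lay above every Vec tumour, and CD43-KO replicate 5 lay among the Vec values. For Tapbp the log2 fold change was 0.23 ± 0.11 (95% interval -0.02 to 0.47), which did not pass the edgeR test (adjusted p = 0.352). It was 0.15 without CD43-KO replicate 3.

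Erap1 (chromosome 13, 74639568 to 74693201) encodes the aminopeptidase that trims peptides to class I length inside the endoplasmic reticulum. Its Vec values were 64.8, 64.6, 78.8 and 61.6 CPM, and its CD43-KO values 82.0, 82.3, 110, 78.3 and 81.2 CPM. Only Vec replicate 3 reached the CD43-KO values, lying just above CD43-KO replicate 4. The means were 67.4 ± 7.71 CPM (SD, n = 4) and 86.8 ± 13.0 CPM (SD, n = 5). The log2 fold change of 0.36 ± 0.12 (95% interval 0.09 to 0.63) was the largest of the 10 genes, and it did not pass over all names in edgeR (adjusted p = 0.246), DESeq2 (adjusted p = 0.115) or limma voom (adjusted p = 0.0611). A two-sided exact permutation test over the 126 splits of the tumours gave p = 0.0159, or 0.270 adjusted over all names. The smallest p that this permutation test gave for any name was 0.0079, at which the adjusted value was 0.228. No name could therefore pass it after adjustment, and its adjusted value does not decide whether Erap1 differed. Without CD43-KO replicate 3 the log2 fold change was 0.26 (edgeR adjusted p = 0.171). Ptprc, the gene of the pan-leukocyte marker CD45, moved with it: it was at 35.9 to 61.7 CPM in Vec and at 37.1 to 148 CPM in CD43-KO tumours, and its part in the result was not tested.

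Calr (chromosome 8, 84841850 to 84846934), the gene of calreticulin, had the opposite sign. It was at 837, 810, 834 and 1017 CPM in Vec and at 690, 738, 726, 742 and 866 CPM in CD43-KO replicates 1 to 5. CD43-KO replicates 1 to 4 lay below every Vec tumour, and CD43-KO replicate 5 lay above 3 of the 4 Vec tumours. The log2 fold change was -0.22 ± 0.10 (95% interval -0.45 to 0.02, edgeR adjusted p = 0.348), and it was -0.21 without CD43-KO replicate 3. The exact permutation test gave p = 0.0397 (0.327 adjusted over all names). As for Erap1, that adjusted value decides nothing, since no name could pass the permutation test after adjustment. Vec replicate 4 was the highest tumour, and without it the log2 fold change was -0.14.

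Pdia3 (chromosome 2, 121413775 to 121438687) encodes ERp57, the partner of calreticulin and tapasin. It was at 564, 566, 623 and 615 CPM in Vec and at 516, 528, 619, 546 and 608 CPM in CD43-KO tumours. Relative to their means these values were the tightest of the set in both groups, with SDs of 31.5 CPM (n = 4) and 47.2 CPM (n = 5) around means of 592 and 564 CPM. The interval of the log2 fold change ran from -0.27 to 0.13 (edgeR adjusted p = 0.720), and the estimate was -0.11 without CD43-KO replicate 3.

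**Figure D3:**
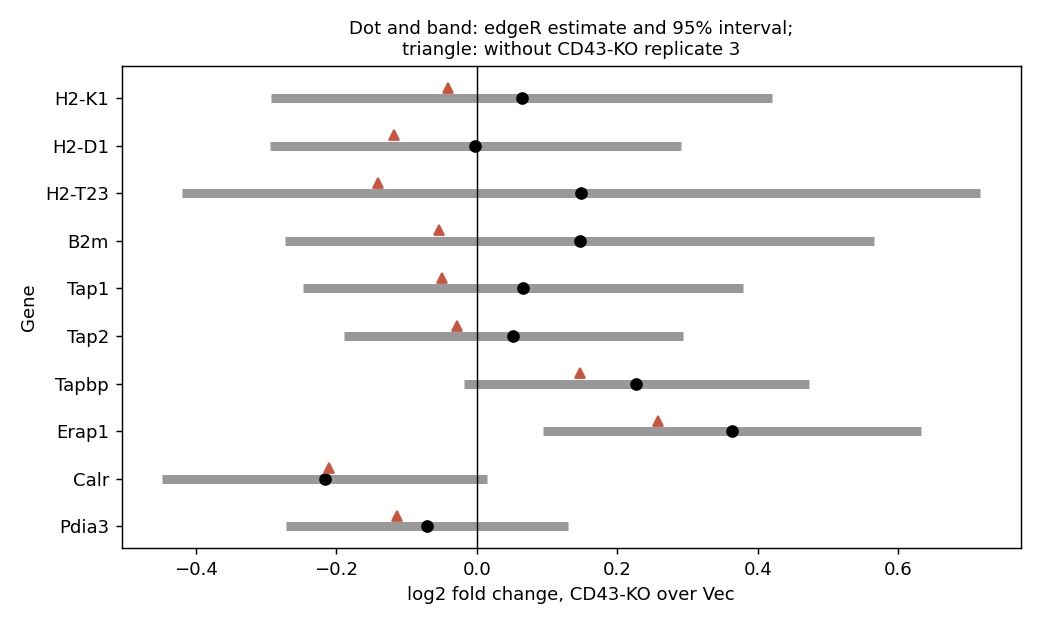
Log2 fold change of CD43-KO over Vec (x axis) for each gene (y axis): black dots are edgeR estimates over 9 tumours, grey bands their 95% intervals, and red triangles the estimates without CD43-KO replicate 3. Estimates run from -0.22 for Calr to 0.36 for Erap1, and the triangles of H2-K1, H2-T23, B2m, Tap1 and Tap2 lie on the other side of 0 from their dots.

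The tumour-to-tumour pattern split the 10 genes. In CD43-KO replicate 3 the log2 level lay above the Vec mean by 0.93 for H2-T23, 0.74 for B2m, 0.71 for Erap1, 0.49 for Tapbp, 0.44 for Tap1, 0.42 for H2-K1, 0.38 for H2-D1 and 0.32 for Tap2. Pdia3 lay 0.07 above and Calr 0.26 below. CD43-KO replicate 4 was the opposite for the nonclassical chain, with H2-T23 0.50 below the Vec mean. Among Vec tumours, replicate 1 lay below the group mean in all 10 genes and replicate 3 above it in 9.

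**Figure D4:**
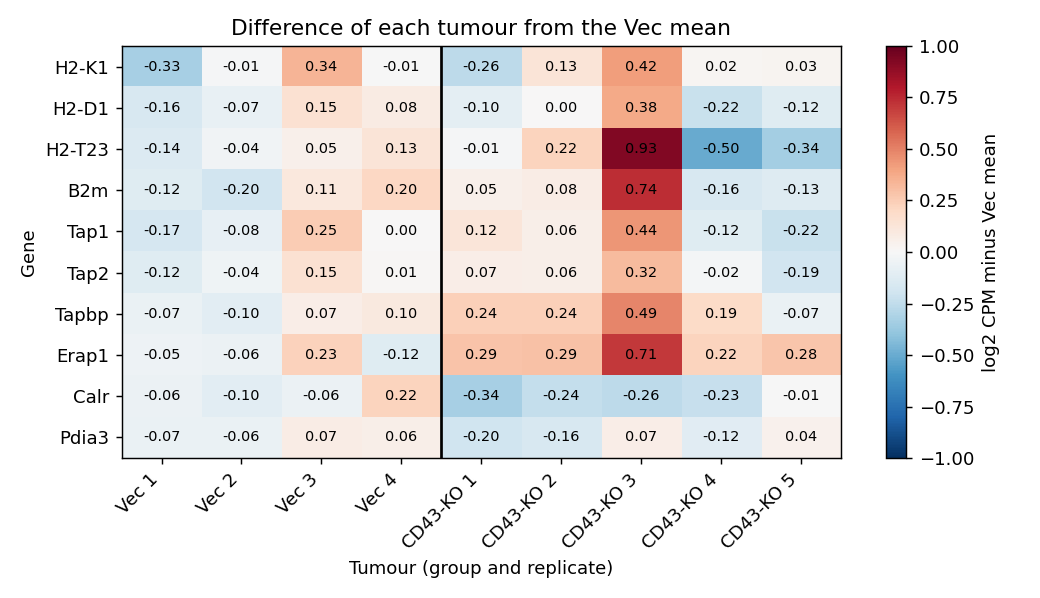
Difference of each tumour (x axis) from the Vec mean in log2 CPM for each gene (y axis); red is higher and blue lower, and the line separates Vec from CD43-KO. The column of CD43-KO replicate 3 is red from H2-K1 to Erap1, up to 0.93 for H2-T23, and blue for Calr (-0.26).

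The levels of some of the genes varied together over the 9 tumours, given here as a description, since the values share libraries and depth. The transporter subunits Tap1 and Tap2 were closest, with Pearson's r = 0.98 of log2 CPM. B2m had r = 0.924 with H2-T23 and 0.921 with H2-D1, while H2-K1 and H2-D1 had r = 0.786. Calr had r = 0.621 with Pdia3, its partner in glycoprotein folding, and negative values with Erap1 (-0.654) and Tapbp (-0.561). Pdia3 was nearly as close to H2-D1 (r = 0.61) and H2-K1 (r = 0.592). With the rest of the genes its r ran from -0.069 for Tapbp to 0.433 for B2m.

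Ptprc gauged leukocyte RNA in the mixture, and of the 10 genes Erap1 followed it most closely over the 9 tumours, with Pearson's r = 0.843 (exact permutation p = 0.00364, 0.0486 adjusted over all names) and Spearman's rho = 0.933 (exact permutation p = 0.00075, 0.0425 adjusted). Of all names, 7.71% had an adjusted p under 0.05 with Ptprc by r. The permutations ran over all 9 tumours without regard to group, so these p-values also take in any difference between Vec and CD43-KO. Over 5 alternatives, among them centring on each group mean, r of Erap1 lay between 0.666 and 0.857. Without CD43-KO replicates 2 and 3, the tumours farthest from the median of Ptprc, r of Erap1 was 0.666, and without CD43-KO replicate 3 alone it was 0.703. The other interferon-regulated genes had r from 0.486 for H2-K1 to 0.732 for H2-T23 (exact permutation p from 0.185 to 0.0194, adjusted from 0.431 to 0.120), with rho from 0.333 for B2m to 0.533 for Tap1 (exact permutation p of 0.385 and 0.148, adjusted 0.695 and 0.448). Without CD43-KO replicate 3 alone their r lay between 0.162 for H2-K1 and 0.446 for H2-T23. Without CD43-KO replicates 2 and 3 it lay between -0.017 for H2-K1 and 0.402 for Tap1. Leaving out those 2 tumours also narrows the range of Ptprc, which can by itself lower r, so the fall does not show what these relations rest on. Calr had r = -0.62 (exact permutation p = 0.0728, 0.258 adjusted) and rho = -0.667 (exact permutation p = 0.0589, 0.282 adjusted), and r = -0.514 without them. For Pdia3 r was -0.051 (exact permutation p = 0.895, 0.954 adjusted) and rho -0.067 (exact permutation p = 0.880, 0.957 adjusted).

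**Figure D5:**
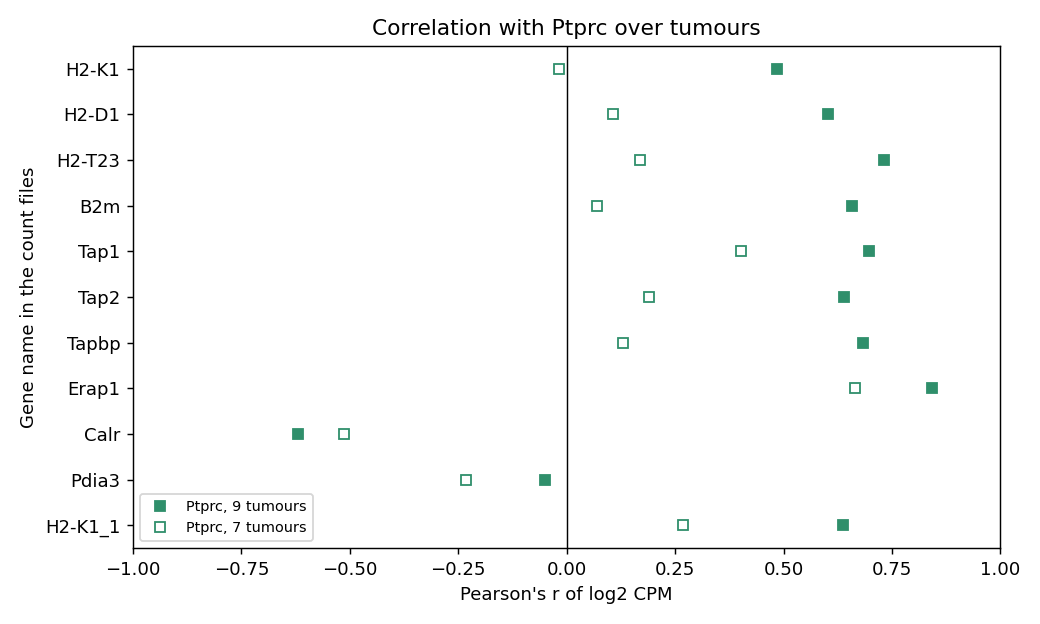
Pearson's r (x axis) of log2 CPM of each gene, and of the copy name H2-K1_1, with Ptprc; filled squares use 9 tumours and open squares 7, without the 2 tumours farthest from the median of Ptprc. Open squares fall to between -0.017 and 0.402 for the genes from H2-K1 to Tapbp, Erap1 stays at 0.666, and Calr lies below 0 in both.

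Other genes whose level varied like these over the 9 tumours were sought among 10058 to 10061 names with a mean of at least 10 CPM, and their r is a description. The highest r of so many names over 9 tumours can be large without any relation between the genes. Nearest to Tap1 were Igtp (r = 0.985), an interferon-induced GTPase, then its copy name Igtp_1, Tap2 (r = 0.98), Tap2_1 and Tgtp2 (r = 0.968), another GTPase of that family. Nearest to Calr were Tada1 (r = 0.969), Shisa4 (0.955), Anxa2 (0.951), Acad9 (0.935) and Stip1 (0.935). Nearest to H2-K1 were Armc8 (r = 0.94), Bcap29 (0.923), Tmem128 (0.904), Gmnn (0.903) and Prps1 (0.889). The list depended on the name, since H2-K1_1 was nearest to Cnpy3 (r = 0.987), Rpl22l1 (0.959), Ebpl (0.956), Tctex1d2 (0.949) and Bcap29 (0.947), which leaves Bcap29 common to both.

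Among the transcription factors and signalling genes that control class I, 2 of 20 tested had an unadjusted edgeR p under 0.05, against 15.4% of all names, so the count does not set the list apart, and none passed after adjustment. Nlrc5, the transactivator that drives class I promoters, was at 90.4, 83.3, 96.4 and 51.2 CPM in Vec and at 109, 114, 116, 113 and 98.3 CPM in CD43-KO tumours. All CD43-KO values thus lay above all Vec values, as in 2.08% of all names. Its log2 fold change was 0.46 ± 0.16 (edgeR adjusted p = 0.262), 0.43 without CD43-KO replicate 3 and 0.28 without Vec replicate 4, the tumour with the lowest value. Jak2, a kinase of the interferon gamma receptor, had 0.36 ± 0.14 (edgeR adjusted p = 0.285), and Irf1, an interferon-induced activator of class I genes, was at 246 ± 29.1 CPM (SD, n = 4) and 303 ± 82.2 CPM (SD, n = 5). The log2 fold change of Irf1 was 0.30 with all tumours and 0.13 without CD43-KO replicate 3, where Irf1 was highest. The median log2 fold change of this list was 0.064.

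Of the other class I heavy chain genes, 14 of 22 were tested and none passed. A log2 fold change above 0 was found in 10 of the 14, beside 54% of all names, with a median of 0.28 beside 0.027. An unadjusted edgeR p under 0.05 was reached by 4 of them, all higher, beside 7.75% of all names in that direction. The most abundant were H2-T22, at 231 ± 27.7 CPM (SD, n = 4) and 204 ± 52.6 CPM (SD, n = 5), and H2-Q4, at 189 ± 40.5 and 200.2 ± 33.7 CPM. For H2-T22 the log2 fold change moved from -0.18 to -0.35 without CD43-KO replicate 3 (edgeR adjusted p = 0.147), and for H2-Q4 from 0.08 to -0.03. The smallest p belonged to low genes: H2-Q5 was at 4.55 ± 0.996 and 8.60 ± 3.83 CPM and H2-Q8 at 3.76 ± 0.652 and 6.55 ± 2.82 CPM (edgeR adjusted p = 0.274 and 0.297). Genes of this family resemble each other, so the split of reads between them is uncertain. Of 5 class I-like partners of beta-2-microglobulin 4 were tested and none passed. Fcgrt, the neonatal Fc receptor, was at 49.7 ± 11.7 and 42.98 ± 14.6 CPM, the iron regulator Hfe at 22.96 ± 5.72 and 25.1 ± 9.77 CPM, and Cd1d1, which presents lipids to NKT cells, at 6.09 ± 1.64 and 8.17 ± 3.82 CPM. Without CD43-KO replicate 3 their log2 fold changes moved from -0.21 to -0.41 (Fcgrt), from 0.13 to -0.10 (Hfe) and from 0.42 to 0.12 (Cd1d1).

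Of the other ER chaperones and loading cofactors, 11 of 15 had log2 fold changes below 0 and 4 above, beside 54% of all names above 0. Their median was -0.040, beside 0.027 over all names, and none passed in edgeR. P4hb, a protein disulfide isomerase, was at 894, 882, 819 and 1114 CPM in Vec and at 669, 698, 716, 768 and 761 CPM in CD43-KO tumours. The groups did not overlap, and the lower direction without overlap held for 3.5% of all names. Its log2 fold change was -0.36 ± 0.11 (edgeR adjusted p = 0.210), and DESeq2 called it (adjusted p = 0.0464). Canx, calnexin, which first catches newly made heavy chains, was at 669 ± 14.7 CPM (SD, n = 4) and 623 ± 80.6 CPM (SD, n = 5). The stress chaperones Hspa5 and Hsp90b1 had Vec means of 961 ± 117 and 894 ± 147 CPM (SD, n = 4) and CD43-KO means of 934 ± 129 and 884 ± 159 CPM (SD, n = 5). Without CD43-KO replicate 3 the log2 fold change of Canx moved from -0.10 to -0.067 and that of Hspa5 from -0.04 to 0.0102. Pdia4, another isomerase, had the opposite sign, at 92.2 ± 6.11 and 118 ± 28.96 CPM.

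Peptides for class I are cut in the cytosol by the proteasome, and none of the 12 genes tested from that step passed. Of the 12, 7 lay above and 5 below 0, beside 54% of all names above 0. The interferon-induced immunoproteasome subunits Psmb8, Psmb9 and Psmb10 had log2 fold changes of 0.08 ± 0.22, 0.02 ± 0.25 and 0.02 ± 0.19, and -0.15, -0.25 and -0.16 without CD43-KO replicate 3. That tumour was again highest, with 163 CPM of Psmb8 against at most 116 CPM in any other. The proteasome activator subunits Psme1 and Psme2 had Vec means of 241 ± 44.4 and 235 ± 34.7 CPM (SD, n = 4) and CD43-KO means of 227 ± 57.9 and 266 ± 106 CPM (SD, n = 5). Psme2 turned from a log2 fold change of 0.18 to -0.10 without CD43-KO replicate 3, and Psme1 moved from -0.085 to -0.25. Blmh, a cytosolic aminopeptidase, averaged 89.4 ± 10.1 CPM over the Vec tumours (SD, n = 4) and 75.2 ± 4.43 CPM over the CD43-KO tumours (SD, n = 5), with no overlap, as in the lower direction for 3.5% of all names (edgeR adjusted p = 0.272), and Npepps, another aminopeptidase, at 135 ± 9.78 and 117 ± 15.4 CPM.

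The list of class I receptors of lymphocytes and myeloid cells, which includes the related Lilrb4a, had log2 fold changes above 0 in 11 of 11 genes, with a median of 1.25, beside 54% of all names above 0. An unadjusted edgeR p under 0.05 was reached by 6 of them, all higher, beside 7.75% of all names in that direction. None passed after adjustment, and limma voom called 1 higher, beside 0.904% of all names. Lilrb4a, the gene voom called, encodes an inhibitory receptor of myeloid cells that is known to bind an integrin and is not an established class I receptor. It was at 54.1, 57.9, 85.7 and 54.2 CPM in Vec and at 106, 104, 179, 71.1 and 89.0 CPM in CD43-KO tumours. Its log2 fold change was 0.80 ± 0.26 (edgeR adjusted p = 0.236, limma voom adjusted p = 0.0494), and 0.55 without CD43-KO replicate 3. Pirb, which binds class I on myeloid and B cells, was at 26.9 ± 2.78 and 47.1 ± 27.8 CPM, and Klrc2, an activating partner of CD94, at 0.245 ± 0.104 and 0.692 ± 0.482 CPM. Pirb moved from a log2 fold change of 0.81 to 0.41 without CD43-KO replicate 3. The 11 leukocyte markers tested also all lay above 0, with a median of 0.81, and their part in the result was not tested.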

How the data were processed

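Gene-level counts of 9 MC38 tumours (4 Vec, 5 CD43-KO) were analysed. The deposited values are whole-number counts per gene name, not scaled to depth, per the file headers and values. Per the submitters' processing notes, GRCm38 was the build, and the tools were DESeq2, StringTie 1.3.5 and HISAT2 2.1.0, with no role named. How reads were counted, on which annotation and with which strand setting is not given in the sources used here. In R 4.3.3, names were kept by filterByExpr (minimum count 10, total 15), scaled by TMM and tested with edgeR 4.0.16 (robust quasi-likelihood F test, group as only term, Benjamini-Hochberg over 18243 names, threshold 0.05); each SE equals the log2 fold change over the root of its F statistic. DESeq2 1.42.0 and limma 3.58.1 (voom with quality weights) were alternatives, beside other scalings, filters and left-out libraries. Levels are TMM-scaled CPM; correlations use log2 CPM (prior count 2). The scripts were tested on simulated data. Lengths and coordinates are from GENCODE vM21 (GRCm38), using the APPRIS principal transcript.

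The genes, lists and tests were chosen with earlier results of these data known. The 10 genes were all named. Of each further list, the genes that passed, or else the 2 most abundant and the 2 with the smallest p, were named, with Nlrc5, Psmb8, Psmb9, Psmb10 and Canx in any case; 1 gene and its correlations are not reported here. For likeness, the 5 names with the highest r were given, without the gene's own copy names and predicted genes.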

Additional observations from a re-analysis of the deposited data

Results flagged for a closer look

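Within each group, the highest and the lowest tumour were compared with the rest for each of the 10 genes by Dixon's gap test. Of 20 groups of values 3 stood out, where chance gives about 1 in 20 for independent groups. These groups share the same libraries and are not independent, so the count of 3 is not read as an excess. B2m in CD43-KO replicate 3 was at 2627 CPM, while the rest of that group lay between 1405 and 1656 CPM. Erap1 in the same tumour was at 109.8 CPM, against 78.4 to 82.3 CPM. Calr in Vec replicate 4 was at 1017 CPM, against 809.5 to 836.6 CPM in the other Vec tumours.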

How the results depend on the processing

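No paired analysis was possible because the replicate numbers 1 to 4 and 1 to 5 follow only the order of deposit. The labels tie no Vec tumour to a CD43-KO tumour by mouse or batch, and all 9 tumours share day 21. Over 21 alternatives none of the 10 genes passed (210 values, smallest adjusted p 0.0611), 193 values kept their sign and 17 did not. Over all names edgeR called 0 higher and 0 lower, DESeq2 247 and 365, limma voom 165 and 332, and edgeR without a filter 0 and 1; leaving out each library gave 0 to 8 higher and 0 to 21 lower, the highest counts without Vec replicate 3.

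Leaving out each library in turn gave log2 fold changes from -0.0476 to 0.18 for H2-K1, -0.12 to 0.05 for H2-D1, -0.14 to 0.27 for H2-T23, -0.0533 to 0.22 for B2m, -0.0491 to 0.15 for Tap1 and -0.0282 to 0.11 for Tap2. The ranges were -0.15 to 0.17 for Psmb8, -0.25 to 0.12 for Psmb9, -0.16 to 0.14 for Psmb10, -0.25 to 0.0437 for Psme1, -0.10 to 0.27 for Psme2, -0.0301 to 0.23 for H2-Q4, -0.10 to 0.26 for Hfe, -0.12 to 0.04 for Hspa5 and -0.13 to 0.0857 for Hsp90b1. Other sign changes came with library totals in place of TMM (H2-D1 0.08, Pdia3 0.014, Hspa5 0.0472, Hsp90b1 0.0638, Psme1 0.0016), with the stricter filter (H2-D1 0.0088) and with limma voom (Hfe -0.11, Hspa5 0.0228, Psmb9 -0.0338, Psmb10 -0.0027). Without Vec replicate 1 and CD43-KO replicate 1 together, chosen after the H2-K1 names were compared, Tap1 was at -0.0146, Tap2 at -0.0033, Psmb9 at -0.0518 and Psmb10 at -0.0244. The cause of these changes was not tested.

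The correlation of Pdia3 with Ptprc turned to 0.24 with library totals and 0.215 after centring on group means. That of H2-K1 with Ptprc turned to -0.017 without the 2 tumours farthest from the median. The lowest count of any of the 10 genes was 3332 (Erap1, Vec replicate 4), so random sampling of reads was small beside the spread between tumours. The assignment of reads to names is not covered by this. For H2-K1 the copy name H2-K1_1 held 122.6% of the counts in Vec replicate 1 and 119.3% in CD43-KO replicate 1.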

Other observations

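Some copy names held a smaller share in CD43-KO replicate 3 than elsewhere. Tap1_2 held 28.1% of the counts of Tap1 in that tumour and 33.2% to 35.6% in the other 8, Tap2_2 held 7.66% of those of Tap2 against 10.1% to 10.9%, and Tapbp_2 held 12.5% of those of Tapbp against 14.5% to 17.6%. The names H2-K1_2 and H2-K1_3 had 0 counts in every library. H2-K1 itself correlated less with H2-D1 (r = 0.786), B2m (r = 0.631) and Tap1 (r = 0.685) over the 9 tumours than H2-K1_1 did (0.868, 0.783 and 0.858), a description of libraries that these names share.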
